A study of Mus musculus with 23 samples.

Results

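The 80 genes described here encode the proteins of the cytosolic ribosome of the mouse. They are the genes of the GENCODE vM21 annotation whose symbol is Rpl or Rps followed by a number, with at most 1 letter (a, x, y or l) after it, together with Rplp0, Rplp1, Rplp2 and Rpsa. They make up 80 of the 22350 genes counted in the series, with 49 members of the large subunit and 31 of the small subunit, and all 80 were listed in the RNA-seq, the organoid Ribo-seq and the mouse Ribo-seq. The 23 libraries came from C57BL/6 mice and from small intestinal organoids, which are epithelial cultures grown from crypts. RNA-seq covered WT organoids (genotype VillinCre.ERT2.RPL22.HA), Rptor fl/fl organoids (VillinCre.ERT2.Rptor.fl/fl, with no RPL22.HA in the label) and stem cell enriched organoids, called SCe (VillinCre.ERT2.RPL22.HA, grown with 10 µM CHIR 99021 and 1.5 mM valproic acid). Ribo-seq of organoids covered Rptor fl/fl (VillinCre.ERT2.Rptor.fl/fl.RPL22.HA) and SCe. Ribo-seq of small intestine covered WT (Lgr5Cre.ERT2.RPL22.HA) and Rptor fl/fl mice (Lgr5Cre.ERT2.Rptor.fl/fl.RPL22.HA), 8 to 12 weeks old. RNA-seq of WT and of Rptor fl/fl organoids had 2 lines each, with 2 technical libraries per line that were added together, and every other group had 3 samples. No Ribo-seq of WT organoids was analysed here, so SCe served as the reference for footprints in organoids. VillinCre.ERT2 acts throughout the intestinal epithelium once tamoxifen activates it, and Lgr5Cre.ERT2 acts in crypt base cells, while the labels call the WT and Rptor fl/fl samples untreated and the study's methods describe tamoxifen. In every Ribo-seq library the ribosomes were pulled down through an HA tag on RPL22, which is itself one of the 80 members.

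Cytosolic ribosomal proteins are assembled with ribosomal RNA in the nucleolus into a large and a small subunit, and a cell that grows or divides spends much of its translation on making them. Their mRNAs are known as TOP mRNAs, because they start with a C followed by a run of pyrimidines (a terminal oligopyrimidine tract). Raptor, the product of Rptor, brings substrates to the kinase complex mTORC1, and translation of TOP mRNAs is known to fall when mTORC1 is inhibited, with the repressors 4E-BP1 and LARP1 acting on the start of the mRNA. Ribosomal protein S6 is also the end of an mTORC1 signalling chain. Crypt cells of the small intestine divide fast, and differentiated cells of the villus do not.

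The start of 60 of the 80 genes was held by the RefSeq promoter table (build GRCm38.p6). A C followed by at least 4 bases that are each C or T, read on the strand of the gene and placed exactly at the annotated start, was present in 13 of these 60 members (21.7%) and in 3.01% of the 27025 genes with such a window. The 6 windows printed here were chosen to show tracts of different length. Each runs from 5 bases before the annotated start to 20 bases from it, 5′ to 3′, and the capitals mark the tract. The first 3 belong to the only members of these 13 with fewer footprints in Rptor fl/fl mice (adjusted p under 0.05, see the mouse values further on). The last 3 are taken from the members with a tract that did not pass that threshold. Of the 43 other members with a window tested in mice, 20 passed it.
Rps6 (chr4:86857348-86857372, minus strand): cgggcCTCTTTTTCgtgacgcctcc
Rps21 (chr2:180257374-180257398, plus strand): ccgccCTCCTgcccaatagtgctgc
Rpl35 (chr2:39005112-39005136, minus strand): ctttcCTCTTTCTCTCgaaccaggc
Rpl15 (chr14:18270967-18270991, minus strand): gccttCTTCCTTTCCTCTggcggca
Rpl28 (chr7:4792960-4792984, plus strand): tgtctCTCTTTCCgtctccggccgc
Rplp2 (chr7:141447646-141447670, plus strand): tcttcCTTTCgccgccggacgccgc
The tract spanned 5 bases in Rps21 and in Rplp2 and 13 bases in Rpl15. The annotated start is 1 position per transcript, so a tract that begins a few bases away from it was not counted.

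Library depth ranged from 27439459 to 67598878 estimated counts per RNA-seq sample, from 1106178 to 8257457 per organoid Ribo-seq library and from 772077 to 8238388 per mouse library. The deleted gene, Rptor, was at 51.5 and 47.9 CPM (counts per 1000000 counts of the library, scaled by TMM factors) in WT organoids and 14.8 and 15.5 CPM after deletion, a fall of 1.71 on the log2 scale (SE 0.08, adjusted p = 0.00516, edgeR). Footprints on Rptor did not pass the test in organoids (log2 change -0.53, adjusted p = 0.318, and -0.75, adjusted p = 0.0935, without SCe replicate 1) or in mice (log2 change -0.28, adjusted p = 0.15), so the organoid Ribo-seq is written of as Rptor fl/fl-labelled libraries, and for the mice the label stands for the group. All 10 epithelial markers were present in every group. In the mice, 6 crypt base markers summed to 554 to 580 CPM in WT and 349 to 534 CPM in Rptor fl/fl, with Lgr5 itself at 7.76 to 11.4 and 6.32 to 45.8 CPM. The 8 enterocyte markers summed to 49222 to 50460 CPM in WT and 54667 to 59267 CPM in Rptor fl/fl mice, and all 10 pancreatic acinar, all 7 immune and all 10 muscle and stromal markers were above 0 in every mouse library, as was the haemoglobin gene Hbb-bs. The mouse libraries thus held footprints of many cell types besides Lgr5-positive cells. Of the organoid Ribo-seq libraries, SCe replicate 1 stood apart from the other SCe libraries in a way that follows coding length, so the organoid footprint counts and the footprint values of named members are also given without it.

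Members took 5.97 to 6.56% of all counts in every RNA-seq sample, 6.36 to 7.31% in the Rptor fl/fl-labelled Ribo-seq libraries and 7.36, 7.43 and 12.9% in the SCe Ribo-seq libraries, where the highest value was that of replicate 1. In mice the share was 1.70 to 1.78% in WT (mean 1.73 ± 0.045%, SD, n = 3) and 1.31 to 1.47% in Rptor fl/fl (1.37 ± 0.084%, n = 3), and these groups did not overlap. The RNA-seq samples of Rptor fl/fl organoids, at 6.55 and 6.56%, lay above those of WT, at 6.08 and 6.09%. Per length, members were among the most abundant mRNAs. The median member had 978 counts per kilobase (per 1000000 counts of the library) in WT organoids against 5.37 for the median gene with any count, and lay above 99.5% of those genes. On the same per-length scale, Rps12, a small-subunit protein, was the highest member in WT RNA at 2036, and Rpl35, whose counts are shared with a near-identical gene, was the lowest of those above 1 at 175. Rpl10l, Rpl39l and Rpl3l, the relatives of Rpl10, Rpl39 and Rpl3 known from testis or from muscle, stood at 0 to 2.71 CPM in every library and were not tested, so 77 members entered each organoid comparison. Rps12 was also below the count filter in mice, which left 76 there.

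**Figure D1:**
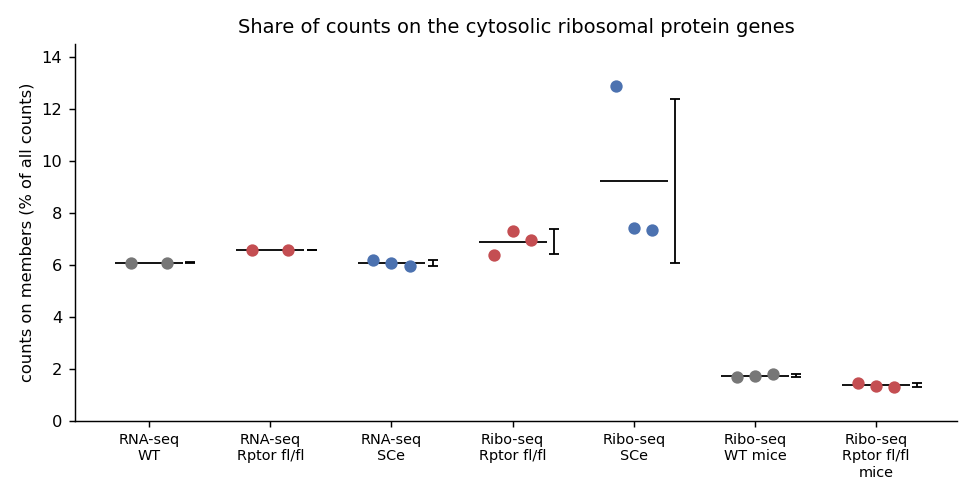
Share of all estimated counts (percent, y axis) on the 80 cytosolic ribosomal protein genes in each sample (points) of the 7 groups (x axis), with the group mean (line) and its SD (bar). The WT mice lie at 1.70 to 1.78% and the Rptor fl/fl mice at 1.31 to 1.47%, and 1 SCe Ribo-seq library lies at 12.9%.

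The first comparison asked whether mRNA of these genes was lower, relative to the other mRNAs of the library, in organoids with deleted Rptor than in WT. It was not lower for the members as a group. By label WT also carries RPL22.HA and Rptor fl/fl does not, so the deletion and the tag cannot be told apart here. Of 77 members tested, 1 was lower and 0 were higher at an adjusted p under 0.05 (edgeR's quasi-likelihood test), where 11% of all 14131 genes tested were lower and 11.6% higher. At an unadjusted p under 0.05, 2 were lower and 8 higher, where 20.2% of all genes were lower and 19.7% higher. The median log2 change of members was 0.055, between quartiles of -0.018 and 0.11, beside -0.0049 over all genes, and single members lay between -0.45 and 0.30. The median was 0.026 for the 46 large-subunit members tested and 0.067 for the 31 small-subunit members.

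The member that fell was Rpl41, the shortest ribosomal protein, part of the large subunit (mm10, chromosome 10, 128548114 to 128549305, minus strand, protein coding). The WT lines had 940 and 901 CPM of its mRNA against 674 and 675 CPM for Rptor fl/fl, and it fell by 26.7% (log2 change -0.45, SE 0.07, adjusted p = 0.0226). Both Rptor fl/fl lines lay below both WT lines. Its adjusted p rose to as much as 0.125 when a line was left out, and it passed without Rptor fl/fl line 2 only. Rplp2, an acidic protein of the stalk that recruits elongation factors, was at 443 and 418 CPM in WT and at 512 and 549 CPM in Rptor fl/fl (log2 change 0.30, adjusted p = 0.0532). Rpl4, a large-subunit core protein, had a log2 change of 0.30 (adjusted p = 0.0714). Rps6, the S6 protein phosphorylated downstream of mTORC1, was at 1262 and 1264 CPM in WT and at 1384 and 1420 CPM in Rptor fl/fl organoids. DESeq2 called 1 member lower and 8 higher, where it called 12.9% of all genes lower and 13.4% higher. With 4 technical libraries kept apart, which treats repeats of a line as replicates, 6 members were lower and 22 higher, where 27.6% of all genes were lower and 27% higher.

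Genes set beside the members were read in the same contrast, where 11% of all 14131 genes tested were lower and 11.6% higher. Of 7 tested genes that encode ribosomal proteins or close relatives but fall outside the naming rule, 3 fell, all of them relatives of a member: Rpl22l1 (log2 change -0.48, adjusted p = 0.015), Rpl36al (-0.47, adjusted p = 0.0154) and Rpl7l1 (-0.33, adjusted p = 0.0252). Of 78 mitochondrial ribosomal protein genes, 27 fell and 0 rose, with a median log2 change of -0.29. Of 51 ribosome assembly factors, 3 fell and 5 rose. Of 19 other TOP mRNAs, which encode elongation factors, initiation factors and other proteins, 0 fell and 2 rose. Among 12 genes of mTORC1 and its link to TOP mRNAs, 4 fell, Rptor included, and 1 rose. The 4E-BP1 gene Eif4ebp1 was among those that fell (-0.87, adjusted p = 0.0193).

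The next comparison set SCe against WT organoids, which share a genotype and differ in the culture medium. Of 77 members, 5 were lower and 1 was higher, where 19.9% of all 14925 genes tested were lower and 22.4% higher. The median log2 change was 0.0039, with quartiles of -0.13 and 0.097. Rpl22, a large-subunit protein that also binds RNA outside the ribosome (chromosome 4, 152325742 to 152334071, plus strand), was at 312 and 323 CPM in WT and at 196, 224 and 207 CPM in SCe. All 3 SCe samples lay below both WT lines, and Rpl22 fell by 33.2% (log2 change -0.58, SE 0.08, adjusted p = 0.00639). Its paralog Rpl22l1 moved the other way, from 162 and 160 CPM in WT to 224, 208 and 206 CPM in SCe (log2 change 0.42, SE 0.07, adjusted p = 0.00859). The other 4 that fell were Rps29 (-0.30), Rpl7 (-0.34), Rpl9 (-0.29) and Rpl39 (-0.23), a protein of the exit tunnel, with adjusted p between 0.0288 and 0.0411. Rps10, a small-subunit protein near the mRNA entry channel, rose from 598 and 571 CPM to 700, 759 and 750 CPM (log2 change 0.35, SE 0.08, adjusted p = 0.0236).

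These counts moved with single samples. Without SCe replicate 1, the least deeply sequenced of the SCe samples, 10 members were lower and 14 higher, where 32.2% of all genes were lower and 31.9% higher. In RNA-seq its 8 enterocyte markers summed to 246 CPM, against 6083 and 7120 CPM in the other SCe samples and 7030 to 7686 CPM in WT. Lgr5 was at 337, 222 and 219 CPM in SCe replicates 1, 2 and 3, and at 215 and 197 CPM in WT. The SCe samples were thus mixed in their markers, and the part of this in the counts was not tested. Without WT line 1 or WT line 2 no member passed in either direction, where 5.67 to 6.05% of all genes were lower, and without SCe replicate 2 or 3 a single member was lower, where 12.3 to 13.6% of all genes were. The adjusted p of Rpl22 was 0.051 without WT line 1 and 0.06 without WT line 2, and it passed in the other 11 of 13 alternatives run. Its log2 change was -0.93 with an offset for effective length and otherwise between -0.64 and -0.54.

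Rptor fl/fl and SCe organoids were also compared at the mRNA level, since the footprint comparison sets Rptor fl/fl-labelled libraries against SCe too. By label the RNA-seq Rptor fl/fl lines lack RPL22.HA, which SCe and the Ribo-seq Rptor fl/fl libraries carry. Deletion, tag and medium therefore cannot be told apart in this comparison, for Rpl22 itself included. The 2 preceding comparisons share their WT samples, and this one shares samples with each of them. Of 77 members, 9 were higher in Rptor fl/fl and 1 was lower, where 21% of all 15103 genes tested were higher and 21.8% lower, and the median log2 change was 0.066. Rpl22 was the highest, with 320 and 323 CPM in Rptor fl/fl against 196 to 224 CPM in SCe (log2 change 0.62, SE 0.09, adjusted p = 0.00524), and it passed in all 13 alternatives run. Rpl22l1 was lower (-0.87, adjusted p = 0.00207). Rpl12, which lies at the base of the stalk, was at 1296 and 1297 CPM in Rptor fl/fl and at 916, 987 and 957 CPM in SCe (0.45, adjusted p = 0.0129). Rpl7 (0.45), the stalk protein Rplp1 (0.51), Rpl9 (0.33), Rpl36 (0.32), Rps4x (0.31), Rps14 (0.31) and Rps29 (0.30) were the other 7 that were higher. Rpl41 was the member that was lower, by 0.45 on the log2 scale (SE 0.09, adjusted p = 0.0163), with 674 and 675 CPM against 860, 966 and 940 CPM. Without SCe replicate 1 the number lower became 6, where 30.2% of all genes were lower. Without SCe replicate 2 there were 3 higher and 0 lower, and without either Rptor fl/fl line or SCe replicate 3 there was 1 higher and 0 lower, where 7.88 to 14% of all genes were higher in these fits.

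**Figure D2:**
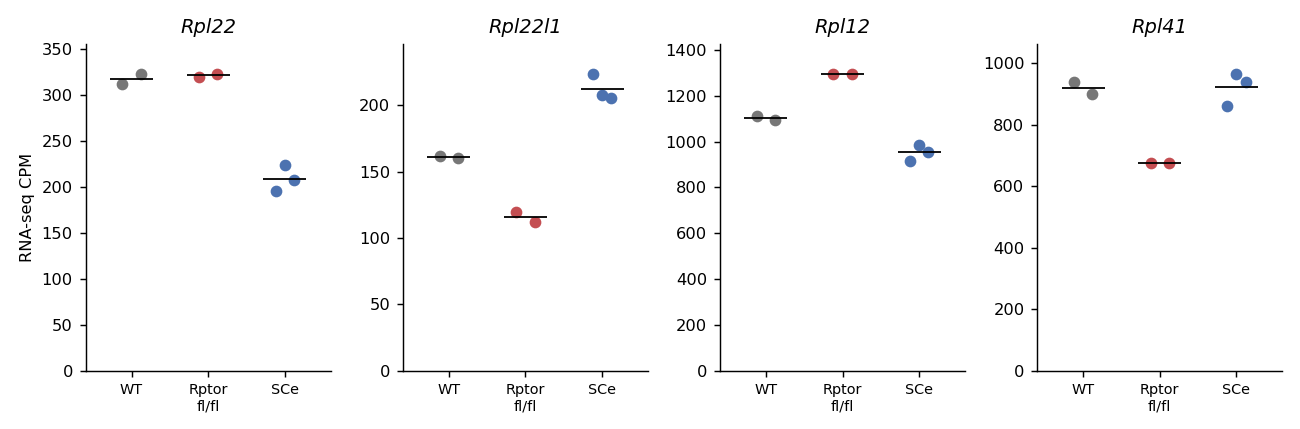
RNA-seq level (CPM, y axis from 0) of Rpl22, its paralog Rpl22l1, Rpl12 and Rpl41 in WT, Rptor fl/fl and SCe organoids, with a point per sample and the mean as a line. Rpl22 is lower and Rpl22l1 higher in SCe than in WT, and Rpl41 is lower in the 2 Rptor fl/fl lines.

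Ribo-seq asked how large a part of the footprints lay on these mRNAs in organoids. When the Rptor fl/fl-labelled libraries were set against SCe, 0 of 77 members passed in either direction (edgeR, adjusted p under 0.05), where 9.84% of all 10817 genes tested were lower and 6.63% higher. At an unadjusted p under 0.05, 10 members were lower and 0 higher, where 17.3% of all genes were lower and 14.9% higher. DESeq2 called 5 lower, where it called 12.1% of all genes lower and 8.64% higher. The log2 change was below 0 for 75 of 77 members, with a median of -0.45 beside -0.023 over all genes. Without SCe replicate 1 that median was -0.031, 44 members lay below 0 and 3 were lower, where 13.4% of all genes were, so the shift of the group rested on this library. At an unadjusted p under 0.05 there were then 7 lower and 2 higher, where 19.7% of all genes were lower and 17.5% higher. Without SCe replicate 3, 5 members were lower, where 10.6% of all genes were, and the median was -0.61. In 13 of 77 members the groups did not overlap and the Rptor fl/fl libraries were lower, where 19.3% of all genes did so. Without SCe replicate 1 this count was again 13, where 26.8% of all genes did so.

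The difference between SCe replicate 1 and the other SCe libraries followed coding length. In the 9 members with a coding sequence of up to 300 bases, its level was a median of 3.25 times the level in the other two SCe libraries (a log2 difference of 1.70). This fell to 2.37 times in 27 members of 300 to 450 bases, to 1.69 times in 18 of 450 to 600 bases, to 1.54 times in 19 of 600 to 900 bases and to 1.21 times in 4 longer ones. Over the 77 members the Spearman correlation of this difference with coding length was -0.90, and over 10740 other genes it was -0.49, with coding length and library shared by all points. The other genes of the same length classes had medians that fell from 2.09 times in the shortest class to 0.871 times in the longest. Rpl41 was at 6073 CPM there, against 1559 and 1018 CPM in the other SCe libraries and 1495, 1515 and 1175 CPM in those labelled Rptor fl/fl. Rps21, a small-subunit surface protein, was at 4105 CPM there, against 825 and 734 CPM and 627, 740 and 641 CPM. Rpl4, the longest, differed by -0.18 on the log2 scale. The haemoglobin gene Hbb-bs, a marker of red blood cells, was at 120, 0.86 and 62.0 CPM in SCe replicates 1, 2 and 3 and at 0.61 to 2.33 CPM under the Rptor fl/fl label. What set SCe replicate 1 apart was not tested.

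**Figure D3:**
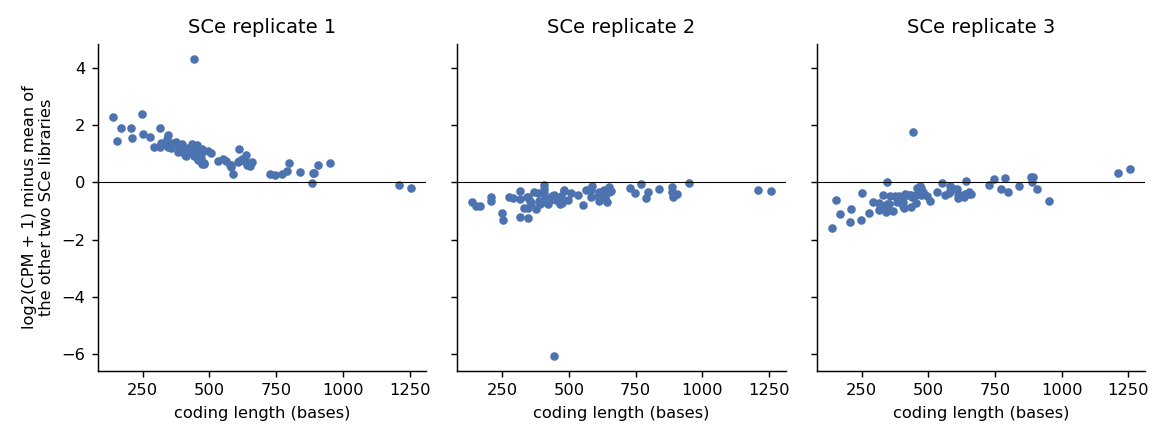
For each member (point), the footprint level in 1 SCe library minus the mean of the other two SCe libraries (log2 of CPM + 1, y axis) against coding length in bases (x axis), in 3 panels. In replicate 1 the shortest members stand highest and the difference falls with length, and the far point near 444 bases in each panel is Rps12, whose footprints are shared with a near-identical gene.

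Of the 3 members that passed without that library, Rps16, a small-subunit protein, had the lowest p (log2 change -0.49, adjusted p = 0.0101), and with all libraries its log2 change was -0.93 (SE 0.29, adjusted p = 0.0607). Rps19, mutated in Diamond-Blackfan anaemia and needed for maturation of the small subunit, also passed (-0.45, adjusted p = 0.0359), and with all libraries it stood at -0.84. Both genes were named because they passed in that setting. Rps6 footprints were at 1347, 1505 and 1439 CPM under the Rptor fl/fl label and at 1719, 1293 and 1624 CPM in SCe, so the groups overlapped (log2 change -0.11, 95% interval -0.52 to 0.29, and -0.029 without SCe replicate 1). Rpl5 and Rpl11, which carry the 5S ribosomal RNA and bind MDM2, had log2 changes of -0.056 and -0.19 (95% intervals -0.50 to 0.38 and -0.73 to 0.34), which became 0.050 and 0.10 without that library. Rpl7 had the highest value, at 1883, 1943 and 1879 CPM against 1998, 1519 and 1595 CPM (log2 change 0.16, and 0.29, adjusted p = 0.0663, without SCe replicate 1). Rpl22, the tagged protein, was at 193, 404 and 328 CPM against 626, 325 and 277 CPM, and its log2 change without that library was 0.042.

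Translation efficiency, the footprint change beyond the mRNA change, was tested as the interaction term of 1 fit to RNA-seq and Ribo-seq counts together. By label the Rptor fl/fl organoids carry RPL22.HA in the Ribo-seq and not in the RNA-seq, so that difference is part of the term. Paneth cell markers summed to 604 to 1271 CPM in Rptor fl/fl RNA-seq (865.5 to 3344.5 in SCe). In Ribo-seq they summed to 6231 to 9322 CPM (3410 to 5923 in SCe). Goblet cell markers were above SCe in both assays. Rptor mRNA was at 14.8 and 15.5 CPM (53.7 to 60.8 in SCe). Its footprints overlapped, at 15.95 to 18.7 CPM (15.2 to 41.9 in SCe). Whether both assays caught the same state was not tested, so the term is not read as translation after Rptor loss. None of the 77 members passed, 0 higher and 0 lower, where 1.81% of all 10747 genes tested were lower and 1.12% higher, and at an unadjusted p under 0.05 there were 2 members lower and 0 higher, where 11.5% of all genes were lower and 8.71% higher. DESeq2 also gave 0 and 0, where it called 6.56% of all genes lower and 4.66% higher. The median log2 difference was -0.46 and became -0.072 without SCe Ribo-seq replicate 1, where again 0 members passed in either direction and 4.92% of all genes were lower. The members with the lowest p were Rpl12 (-1.01, SE 0.39, adjusted p = 0.178) and Rplp1 (-1.33, SE 0.53, adjusted p = 0.186), both of the stalk region. Without SCe Ribo-seq replicate 1 these became -0.55 (adjusted p = 0.0574) and -0.64 (adjusted p = 0.0762), and the footprint changes alone went from -0.62 to -0.16 for Rpl12 and from -0.88 to -0.18 for Rplp1. In simulated data with the same depths the test found 12% of genes changed 2-fold and 83% of genes changed 4-fold. The changed genes were drawn from all genes tested, most of them far less abundant than members. The share that would be found among members was not measured. Footprints per length divided by mRNA per length, centred on the median gene, gave the same picture library by library. The member median was 0.024 and 0.067 on the log2 scale in SCe replicates 2 and 3, 1.04 in SCe replicate 1, while the Rptor fl/fl-labelled libraries had -0.13, 0.084 and 0.022. Apart from SCe replicate 1, every library's member median lay within 0.13 of that of the median gene.

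**Figure D4:**
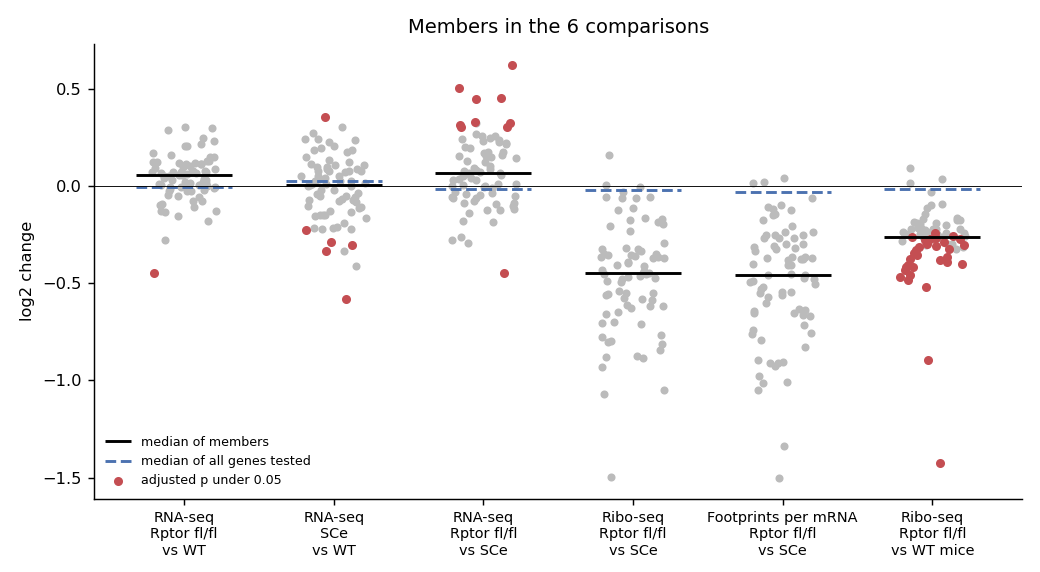
Log2 change (y axis) of each member tested (point) in the 6 comparisons (x axis), with the median of members (black line) and of all genes tested (dashed line); red points have an adjusted p under 0.05. The members centre on 0.055, 0.0039 and 0.066 in RNA-seq, on -0.45 and -0.46 in organoid Ribo-seq and translation efficiency, where -0.031 and -0.072 were found without 1 SCe library, and on -0.26 in mice.

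In mice, footprints on members were lower in Rptor fl/fl than in WT. Of 76 members tested, 33 were lower (43.4%) and 0 were higher at an adjusted p under 0.05, where 5.97% of all 11515 genes tested were lower and 7.47% higher. The log2 change was below 0 for 73 of 76 members, with a median of -0.26 (a fall of 16.6%) between quartiles of -0.33 and -0.21, beside a median of -0.015 over all genes. In 53 members all 3 Rptor fl/fl mice lay below all 3 WT mice, where 15.5% of all genes did so, and in 0 members they all lay above. Both subunits held members that fell. Of 46 large-subunit members 20 were lower (median -0.26), and of 30 small-subunit members 13 were lower (median -0.25). The change did not follow coding length, with a Spearman correlation of -0.029 over 76 members. No mRNA of these mice was measured here, so a change in mRNA and a change in translation cannot be told apart, and in bulk tissue fewer cells of a type and less RNA per cell cannot be told apart either.

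The most changed member with its own counts was Rpl41. WT mice had 286, 265 and 260 CPM on it and Rptor fl/fl mice 156, 152 and 128 CPM, so the groups were far from overlapping. It fell by 46.2% (log2 change -0.90, SE 0.09, adjusted p = 6.38e-06). Rpl18, a large-subunit protein (chromosome 7, 45715457 to 45720836, plus strand), was at 250, 233 and 263 CPM against 176, 179 and 168 CPM (-0.52, SE 0.08, adjusted p = 0.000415). Rpl13, another large-subunit protein, was at 243, 231 and 243 CPM against 183, 179 and 174 CPM (-0.42, adjusted p = 0.00154). In all of these the groups did not overlap. Rpl36 (-0.43), Rpl8 (-0.35), a protein near the peptidyl transferase centre, and Rpl11 (-0.38) also fell, as did Rpl5 (-0.29, adjusted p = 0.0195), the partner of Rpl11 in the 5S particle.

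Of the stalk proteins, Rplp1 was at 196, 186 and 191 CPM in WT and at 127, 137 and 150 CPM in Rptor fl/fl mice (log2 change -0.46, adjusted p = 0.00225). Rplp0, on which the stalk is built, was at 327, 300 and 312 CPM against 251, 274 and 267 CPM (-0.24, adjusted p = 0.0463), and it passed in 3 of 13 alternatives only, in none of those that leave out a mouse and not with DESeq2. Rplp2 was at 243, 230 and 252 CPM against 218, 211 and 202 CPM and did not pass (-0.21, adjusted p = 0.0948). The groups did not overlap for any of the 3 stalk genes.

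In the small subunit, Rps21 was at 145, 146 and 131 CPM in WT and at 106, 95.3 and 97.8 CPM in Rptor fl/fl mice (log2 change -0.49, adjusted p = 0.00172). Its groups did not overlap. Rpsa, the small-subunit protein also known as the laminin receptor, was at 353, 313 and 345 CPM against 257, 278 and 248 CPM (-0.37, adjusted p = 0.00585). Rps3, which lines the mRNA entry channel, fell by 0.33 on the log2 scale (adjusted p = 0.0157). Rps6 was at 326, 400 and 414 CPM against 322, 312 and 326 CPM, with its highest Rptor fl/fl mouse just below its lowest WT mouse, and lay at the edge of the threshold (-0.27, SE 0.09, adjusted p = 0.0498), passing in 5 of 13 alternatives.

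Of the members that did not pass, a few had values close to 0. Rps27l, a relative of Rps27 known as a p53 target, was at 64.5, 74.9 and 80.7 CPM in WT and at 87.0, 78.6 and 77.9 CPM in Rptor fl/fl mice, the highest log2 change of any member tested (0.094, 95% interval -0.12 to 0.31). Rps14 (0.035) and Rps29 (0.014) had overlapping groups. Others lay nearer the member median. Rpl22, through whose tag the ribosomes were pulled down, was at 61.9, 62.1 and 66.7 CPM against 60.3, 55.1 and 54.3 CPM, which did not overlap but did not pass (-0.19, adjusted p = 0.255). Rpl7 (-0.25, adjusted p = 0.0907) and Rps20 (-0.25, adjusted p = 0.126) stood at about the member median of -0.26 and did not pass, nor did Rps4x (-0.19, adjusted p = 0.102).

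**Figure D5:**
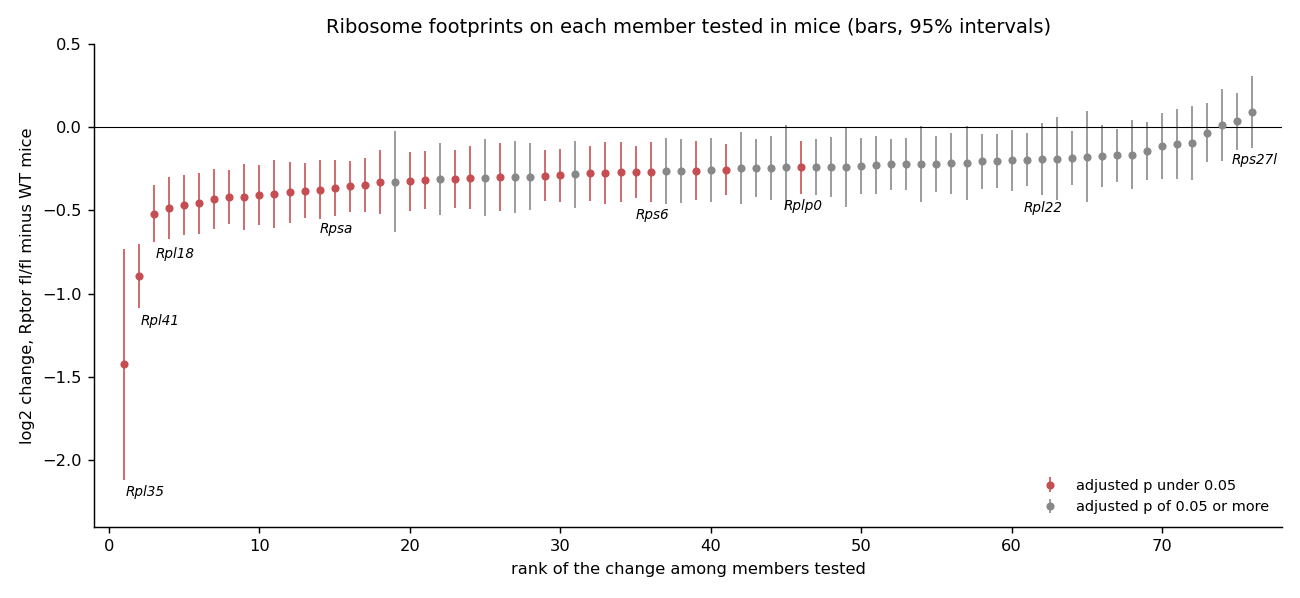
Log2 change in ribosome footprints, Rptor fl/fl minus WT mice (y axis), of each of the 76 members tested (x axis, rank of the change from the largest fall), with 95% intervals and a few members named in the text labelled. The 33 members in red have an adjusted p under 0.05, and 73 of 76 members lie below 0.

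The number of members called in mice depended on single animals. It was 53 without Rptor fl/fl mouse 1, 15 without Rptor fl/fl mouse 2, 16 without Rptor fl/fl mouse 3, 19 without WT mouse 2 and 16 without WT mouse 3. Over all genes, 7.25% were lower without Rptor fl/fl mouse 1 and 3.23 to 3.67% without each of the other 4. Without WT mouse 1, the thinnest library, the number of members also lay between 15 and 53, and 4.73% of all genes were lower. Members called with all mice that no longer passed there included Rps3, Rpl5, Rps15 and Rplp0. The median of members lay between -0.32 and -0.22 in these fits. Rptor fl/fl mouse 1 also differed in crypt markers, with Lgr5 at 45.8 CPM against 8.53 and 6.32 CPM in Rptor fl/fl mice 2 and 3. The part of this difference in the counts was not tested. With library totals in place of TMM factors 57 members were lower, where 9.22% of all genes were lower and 5.12% higher. The median of members was then -0.34, beside -0.097 over all genes. Of the 33 members called, 14 passed in all 13 alternatives run, among them Rpl41, Rpl18, Rpl13, Rps21, Rplp1, Rpl8, Rpl11 and Rpsa.

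Cell type markers moved in the same mice, where 5.97% of all 11515 genes tested were lower and 7.47% higher. The crypt base markers summed to 554 to 580 CPM in WT and to 534, 380 and 349 CPM in Rptor fl/fl mice 1, 2 and 3. The 6 Paneth cell markers summed to 8998 to 9847 CPM in WT and to 8752, 5371 and 5184 CPM in Rptor fl/fl mice 1, 2 and 3. Of 5 crypt base markers tested 2 fell, Ascl2 (-1.69, adjusted p = 0.00765) and Olfm4 (-0.63, adjusted p = 6.29e-05), and Lgr5 did not pass (1.02, adjusted p = 0.333). Of 6 Paneth markers 3 fell, among them the defence gene Ang4 (-1.09, adjusted p = 4.03e-08). Of 8 enterocyte markers 3 rose and 1 fell, and their summed level did not overlap between the groups. Of 6 goblet markers 3 rose, with sums of 21456 to 21834 CPM in WT and 25102 to 28087 CPM in Rptor fl/fl. The pancreatic markers summed to 2897 to 6742 CPM in WT and 5774 to 7086 CPM in Rptor fl/fl, the 7 immune markers to 3769 to 3858 CPM and 3491 to 3869 CPM, and the muscle and stromal markers to 2198 to 2248 CPM and 2253 to 2639 CPM. Of 10 muscle and stromal markers 5 rose and 1 fell, and their summed level did not overlap between the groups. Of 10 pancreatic markers 1 rose and 0 fell, and of 9 immune and haemoglobin markers 3 rose and 1 fell. Of all the markers tested in mice, the haemoglobin genes, which mark red blood cells, had the largest log2 changes. Hbb-bs was at 88.5, 94.0 and 70.0 CPM in WT and at 411, 452 and 497 CPM in Rptor fl/fl mice (log2 change 2.48, SE 0.11, adjusted p = 1.23e-09). Hba-a1 was at 0, 0.91 and 9.86 CPM against 22.1, 38.7 and 39.4 CPM (log2 change 2.46, SE 0.41, adjusted p = 0.000831). Both were higher in all 3 Rptor fl/fl mice than in any WT mouse. The part of these cell types in the change of the members was not tested.

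Related genes in the mice are given for the same contrast, where 5.97% of all 11515 genes tested were lower and 7.47% higher. Of 8 genes outside the naming rule 4 fell and 0 rose, including Fau, which encodes the small-subunit protein eS30 (log2 change -0.42, adjusted p = 0.00142), and Rps3a1 (-0.29, adjusted p = 0.0296). Rps27rt, a copy of Rps27, fell as well (-0.61, adjusted p = 0.004). Of 51 ribosome assembly factors 13 fell and 0 rose, with a median of -0.37. Of 19 other TOP mRNAs 2 fell and 0 rose, Eef1g (-0.35, adjusted p = 0.00568), a subunit of elongation factor 1, and Eif4b (-0.30, adjusted p = 0.03), an initiation factor, with a median of -0.12. Of 78 mitochondrial ribosomal protein genes 0 passed in either direction (median -0.079). Among 12 genes of mTORC1 and its link to TOP mRNAs 1 fell, Larp1 (-0.36, adjusted p = 0.0417). Among members with a window at the start, 3 of the 13 that held a tract exactly there were lower (median -0.24) and 20 of the 43 others tested were lower (median -0.26), with no test between these groups.

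Near-identical genes took part of the counts of some members, so their single values are uncertain. Of the 80 members, 14 had at least 1 other protein-coding gene with a coding sequence at least 90% identical over at least 80% of its length, 17 such genes in all, and 8 of these took at least 10% of the pair's counts in some group. Rpl35 is the clearest case. Its own counts in mice were at 6.32, 6.85 and 7.12 CPM in WT and 1.98, 3.65 and 2.27 CPM in Rptor fl/fl, the largest fall of any member (-1.42, SE 0.32, adjusted p = 0.00837, up to 0.099 in the alternatives), but Gm2000, with a coding sequence 99.7% identical, held 96.4% and 98.3% of the pair's counts. With both added together the pair was at 177, 189 and 197 CPM against 158, 135 and 140 CPM (-0.39, adjusted p = 0.00671). Rps12 had the same problem. Its footprints in organoids were at 1.99, 304 and 405 CPM under the Rptor fl/fl label and 942, 6.84 and 287 CPM in SCe, while its copy Rps12-ps3, identical in coding sequence, was at 430, 299 and 137 CPM and 928, 476 and 285 CPM. The sum varied less, at 432, 603 and 542 CPM against 1871, 483 and 571 CPM, where the highest value was again SCe replicate 1. In mice Rps12-ps3 held 96.6 to 97.0% of the pair, and the sum was at 134, 124 and 129 CPM in WT and 112, 108 and 120 CPM in Rptor fl/fl (-0.17, adjusted p = 0.217). Rps27 passed in mice once Rps27rt was added (-0.45, adjusted p = 0.00648, from -0.33 and adjusted p = 0.151 alone), while Rps10 did not pass with or without its readthrough partner RPS10-NUDT3 (-0.22, adjusted p = 0.0732, and -0.11, adjusted p = 0.478).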

How the data were processed

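RNA-seq and Ribo-seq libraries were grouped by their labels. Per the labels and methods, adapters were cut with cutadapt 1.18, Ribo-seq reads of ribosomal RNA were discarded, and the authors ran Salmon 1.1.0 on protein-coding sequences of GENCODE vM21 (mm10), for Ribo-seq with untranslated regions trimmed and duplicates removed. The deposited values used are estimated counts per sequence, made by the authors' Salmon run. The authors' other deposited columns (sequence lengths) served for levels per length, and TPM was not used, since its effective lengths assume fragments longer than footprints. A sequence shared by near-identical genes is divided among them by Salmon. A further table of the authors' own test of translation efficiency (ratios and p-values) was not used. Counts were summed per gene, 5′ entries left out, technical libraries of a line added together, and rounded.

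All genes were tested with edgeR 4.0.16 (R 4.3.3), quasi-likelihood F test, TMM factors and a filter on low counts, and p-values were adjusted over all genes tested by Benjamini-Hochberg. Calls need an adjusted p under 0.05. CPM are counts per 1000000 after TMM scaling within RNA-seq, organoid Ribo-seq or mouse Ribo-seq, so levels are compared only within each. All levels and changes are relative to the other genes of a library, so a change in total mRNA or in total translation would not be seen. Where nothing in the labels ties samples to separate animals, p-values measure the spread between these samples. Depth sets the counting error of each level, and the thinnest library held 772077 counts. The pipeline was tested on simulated counts with 200 changed genes. Alternatives were DESeq2 1.42.0, no count filter, library totals, TMM on non-members, an effective-length offset, copies added, each sample left out, replicate number as a block and technical libraries kept apart. The planned list of copies by protein identity was not run, because no protein table was used here, and identity of coding sequences was used in its place, chosen after seeing the data. Genes named in the text are a list of members by role (stalk, 5S, S6, tag, paralog pairs), the 5 members with the smallest adjusted p in each direction and the extremes of each comparison; others were named after their values were seen. The members and gene lists were chosen with earlier results of these data known. Replicate numbers were not taken to pair the samples, since the labels give the groups different genotypes or media and no shared animal. The list of blood and immune markers was split into 7 immune and 2 haemoglobin genes after seeing the data. Values of a few single genes are not reported here.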

Additional observations from a re-analysis of the deposited data

How the results depend on the processing

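The direction of each median held in all alternatives run except in SCe against WT RNA-seq, where the median of 0.0039 ranged from -0.031 to 0.037. With samples left out in turn, Rptor fl/fl against WT RNA-seq gave 0 to 1 members lower, 0 higher and medians of 0.046 to 0.063. SCe against WT gave 0 to 10 lower and 0 to 14 higher. Rptor fl/fl against SCe RNA-seq gave 0 to 6 lower, 1 to 10 higher and medians of 0.020 to 0.097. Organoid Ribo-seq gave 0 to 5 lower and medians of -0.61 to -0.031, translation efficiency medians of -0.60 to -0.072, and mice 15 to 53 lower and medians of -0.32 to -0.22. In these 3 RNA-seq comparisons, in the order given, DESeq2 called 1, 13 and 3 members lower and 8, 2 and 19 higher. Over all genes it called 12.9, 24.6 and 25.9% lower and 13.4, 26.1 and 24.8% higher. Technical libraries kept apart gave 6, 12 and 5 lower and 22, 8 and 19 higher. Over all genes they gave 27.6, 29.5 and 31.4% lower and 27, 31.7 and 29.6% higher. With the replicate number as a block the counts were 2, 1 and 0 lower and 4, 0 and 1 higher. Over all genes the block gave 16.9, 9.39 and 11.5% lower and 16.7, 11.7 and 11.1% higher. The block gave 0 lower in organoid Ribo-seq and in translation efficiency, and 27 lower in mice, and it is given here only. Of all genes, 6.58, 0.0186 and 4.98% were lower in those fits, in the same order. Same-numbered samples had correlations of deviations from -0.054 to 0.027 in Ribo-seq. In RNA-seq they had 0.416 over 2 lines, and different numbers -0.416, a mirror image that 2 pairs always give. The study's methods speak of paired organoids for Rptor without naming the libraries. With the block in Rptor fl/fl against WT, Rpl4 (adjusted p = 0.0252), Rplp0 (0.0323), Rplp2 (0.0343) and Rps15 (0.0419) were higher, and Rpl41 (0.00805) and Rps27l (0.0487) lower, where 16.7% of all genes were higher and 16.9% lower. Library totals without TMM gave 2 higher and a median of 0.10 in Rptor fl/fl against WT, 3 higher in SCe against WT, 1 lower in organoid Ribo-seq and 57 lower with a median of -0.34 in mice. Over all genes, these fits gave 13.4 and 19.6% higher, then 9.53 and 9.22% lower, in the same order. The offset for effective length gave 0 higher in SCe against WT, where 22.1% of all genes were higher. No count filter gave 1 lower in organoid Ribo-seq, where 7.85% of all genes were lower. The cause of these shifts was not tested. The 2 lines per RNA-seq group and 3 samples elsewhere, with SCe Ribo-seq replicate 2 at 1106178 counts and WT mouse 1 at 772077, limit what small changes could pass.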

Other observations

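Footprints at the 5′ entries of the organoid Ribo-seq, which cover upstream regions and were left out above, were rarely on members. Of the 5′ footprints, the Rptor fl/fl-labelled libraries had 0.96 to 1.27% on members and the SCe libraries 2.80, 1.19 and 0.995%, where the highest was again SCe replicate 1. In that library 4162 of 148765 such footprints fell on members, against 756 of 63400 and 1292 of 129861 in the other SCe libraries.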
